A study of Mus musculus with 2 samples.

Results

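The genes described here are 10 members of the Hippo pathway and of its transcriptional output, out of 31054 features counted in single liver cells. They are Yap1, Wwtr1, Tead1, Lats2, Ajuba, Amotl2, Nuak2, Cyr61, Ctgf and Ankrd1. They were chosen by name, and were compared between 2 libraries within 3 classes of cells set by marker genes. Hepatic stellate cells (HSCs), the vitamin A storing mesenchymal cells that become the collagen producing cells of the injured liver, were isolated from male mice after 4 weeks of carbon tetrachloride (CCl4), a hepatotoxin. Each genotype gave 1 library, and the number of mice in it is not stated.

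All mice had a C57BL/6 background, and their age is not given in the sources used here. Both groups received CCl4, tamoxifen and diphtheria toxin. The p16-Alb-LRTD mice were heterozygous males and carried p16-CreERT2 and Alb-DreERT2 beside the reporter R26-CAG-LSL-RSR-tdTomato-2A-DTR, so that the toxin receptor depends on both recombinases, one driven by p16 and the other by the hepatocyte gene Alb. Hepatocytes with high p16 expression were removed in these mice. The p16-LRTD mice lacked Alb-DreERT2 and served as the control. The study's authors raise possible leak of the receptor allele as a limit of this model. The comparison asks how HSCs, and the endothelial and Kupffer cells isolated with them, differ when p16-high hepatocytes have been removed.

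The Hippo pathway is a kinase cascade that restrains the coactivators YAP (Yap1) and TAZ (Wwtr1). When LATS kinases phosphorylate them, the coactivators stay in the cytoplasm, and when the cascade is off they enter the nucleus and bind TEAD factors at target genes such as Ctgf, Cyr61 and Ankrd1. Stiff matrix, cell spreading and actin tension favour nuclear YAP and TAZ, and in HSCs the pathway is known for its part in activation. RNA levels of these genes do not report where the proteins are or whether they are phosphorylated.

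After filtering, the p16-LRTD library held 9004 cells and the p16-Alb-LRTD library 7416. In the following, values come in that order, the control first. An HSC had at least 15 UMIs (counted molecules) of Lrat, Ecm1, Hgf and Reln per 10000, an endothelial cell at least 8 of Kdr, Stab2 and Ptprb, and a Kupffer cell at least 8 of Clec4f, Cd5l, Vsig4 and Csf1r. This gave 7852 and 6621 HSCs, 430 and 283 endothelial cells, and 283 and 178 Kupffer cells. A further 245 and 221 cells passed more than 1 limit and were set aside, and 194 and 113 passed none. The summed counts were 142651137 and 125115995 UMIs for HSCs, but between 3983226 and 6154423 for each of the other classes, so ratios in HSCs have the narrowest intervals. Cells within 20% of the HSC limit numbered 25 and 16 just inside and 27 and 19 just outside. Markers that the limits did not use were checked. Pecam1, Clec4g, Oit3, Dnase1l3 and Egfl7 summed to 5772 and 5214 CPM in endothelial cells and 73.5 and 50.2 CPM in HSCs. Of these, Egfl7 differed most between the libraries in endothelial cells, at 1524 and 797 CPM. C1qa, C1qb, Adgre1, Marco and Timd4 summed to 7672 and 10034 CPM in Kupffer cells and 18.6 and 14.8 CPM in HSCs. The HSC markers Dcn, Des, Rgs5, Pdgfrb, Colec11 and Cygb lay in endothelial and Kupffer cells at 0.791% to 3.67% of their HSC level. The libraries shared 18 cell barcodes among the filtered cells.

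Levels are given as CPM, UMIs per 1000000 UMIs of the class in that library (3' counts of molecules, not divided by gene length), with exact Poisson intervals (95%), and ratios as log2 of p16-Alb-LRTD over p16-LRTD with exact conditional intervals. All intervals cover counting error only. With a single library for each genotype, no test could be made, and each difference is one between these 2 libraries, whose genotype, animals and preparation cannot be told apart. A mean of at least 5 CPM and a 1.5-fold ratio were used to describe size.

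TEAD factors recognise the letters GGAATG, or CATTCC on the opposite strand. Upstream windows of 250 bases from RefSeq (GRCm38.p6, the assembly of mm10) were at hand for 7 of the 10 genes, and 6 of these, all but Lats2, held these letters. Among 27025 genes with such a window, 14.4% did. The AP-1 letters TGANTCA, which Fos and Jun proteins bind, were in none of the 7, against 7.82% of genes, and a CArG box, bound by serum response factor, was also in none, against 1.62%. A match is a description of letters and not a site in use. The windows of Cyr61 and Ajuba are shown whole because these genes differed between the libraries in endothelial cells, and the TEAD letters are in capitals, written along the gene's own strand. The window of Cyr61, chr3:145649986-145650235 on the minus strand, held them once, beginning 103 bases before the start.
Cyr61: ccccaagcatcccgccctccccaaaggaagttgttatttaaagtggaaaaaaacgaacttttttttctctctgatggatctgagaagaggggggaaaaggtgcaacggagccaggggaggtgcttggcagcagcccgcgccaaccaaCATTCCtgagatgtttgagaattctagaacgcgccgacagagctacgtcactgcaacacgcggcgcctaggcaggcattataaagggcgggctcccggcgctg
The window of Ajuba, chr14:54577662-54577911 on the minus strand, held them 2 times, beginning 186 and 164 bases before the start.
Ajuba: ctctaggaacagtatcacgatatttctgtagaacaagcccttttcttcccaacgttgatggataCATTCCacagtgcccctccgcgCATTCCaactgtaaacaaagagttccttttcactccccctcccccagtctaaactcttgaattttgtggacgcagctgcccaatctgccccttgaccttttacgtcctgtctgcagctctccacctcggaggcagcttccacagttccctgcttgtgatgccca
For the coactivators and 2 other members only the bases around the match are shown. The windows were chr9:8004597-8004846 for Yap1, chr3:57575911-57576160 for Wwtr1 and chr19:36119845-36120094 for Ankrd1, on the minus strand, and chr9:102717554-102717803 for Amotl2, on the plus strand. GENCODE places all 250 bases of the Ankrd1 window and 136 of the Amotl2 window in an exon, and none of the others shown. The letters begin 141 bases before the start in Yap1, 136 in Wwtr1, 65 in Amotl2 and 210 and 123 in Ankrd1.
Yap1: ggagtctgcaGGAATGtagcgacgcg
Wwtr1: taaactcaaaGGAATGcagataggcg
Amotl2: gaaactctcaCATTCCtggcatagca
Ankrd1, first match: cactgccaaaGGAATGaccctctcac
Ankrd1, second match: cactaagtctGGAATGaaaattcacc

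The coactivators and their DNA-binding partner were close between the libraries in HSCs. Yap1, the gene of YAP, was counted at 83.9 CPM (82.4 to 85.4) and 95.8 CPM (94.1 to 97.5), a log2 ratio of 0.19 (0.15 to 0.23). Wwtr1, the gene of TAZ, was counted at 147 and 148 CPM, a log2 ratio of 0.01 (-0.02 to 0.04). Tead1, which encodes a DNA-binding partner of both, was counted at 411 and 469 CPM, a log2 ratio of 0.19 (0.17 to 0.21). None of the 3 genes came near the 1.5-fold limit, and the median log2 ratio of all 10179 genes with at least 5 CPM in HSCs was -0.05.

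Lats2 encodes a kinase that phosphorylates YAP and TAZ and is itself a target of YAP. It was counted at 94.0 and 97.5 CPM in HSCs, a log2 ratio of 0.05 (0.02 to 0.09). It overlaps Gm49361 on the same strand of chromosome 14, which held 1386 and 1488 UMIs in HSCs, so the split of reads between them is uncertain. The ratio of Lats2 turned to -0.05 when HSCs were given equal shares of 3 collagen levels in both libraries. Nuak2, a kinase related to AMPK and another YAP target, was low, at 9.24 and 7.55 CPM, with a log2 ratio of -0.29 (-0.41 to -0.17). Amotl2, an angiomotin-like protein that binds YAP and is induced by it, was counted at 108 and 130 CPM, a log2 ratio of 0.28 (0.25 to 0.31).

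Ajuba encodes a LIM-domain adaptor that binds LATS kinases and limits their activity. It was counted at 23.8 CPM (23.0 to 24.6) in control HSCs and 13.4 CPM (12.8 to 14.0) in those of p16-Alb-LRTD. The log2 ratio was -0.83 (-0.92 to -0.75), so that the control library was 1.78-fold higher. Its family members Limd1 and Wtip, named after their values were seen, had log2 ratios of 0.12 and 0.07 in the same cells.

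The secreted CCN proteins Ctgf (CCN2) and Cyr61 (CCN1), widely used readouts of YAP and TAZ, went apart in HSCs. Ctgf, a matricellular protein tied to fibrosis, was counted at 335 CPM (332 to 338) in the control and 734 CPM (730 to 739) in p16-Alb-LRTD. It was thus 2.19-fold higher in p16-Alb-LRTD (log2 ratio 1.13, 1.12 to 1.15). Cyr61, a second matricellular protein that binds integrins, was counted at 421 CPM (417 to 424) and 383 CPM (380 to 387), a log2 ratio of -0.14 (-0.15 to -0.12). Another member of the family with enough counts, Wisp1, had 28.2 and 23.7 CPM, a log2 ratio of -0.25 (-0.32 to -0.18).

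Ankrd1, a nuclear ankyrin repeat protein of stretched muscle and a strong YAP target elsewhere, was nearly silent in HSCs, at 1.66 and 3.08 CPM. Its log2 ratio was 0.89 (0.65 to 1.13), below the level filter. The 237 UMIs of p16-LRTD came from 86 of 7852 cells, and the 385 of p16-Alb-LRTD from 103 of 6621. A single p16-Alb-LRTD cell held 110 of them, and the 5 cells with most held 51.4%. In the cells that passed no class limit, Ankrd1 reached 12.8 CPM in the control and 40.5 CPM in p16-Alb-LRTD, where 1 cell held 68 of 108 UMIs. Those cells were also rich in collagen RNA (Col1a1, Col1a2 and Col3a1), with sums of 11676.5 and 8849 CPM, and their summed portal fibroblast and mesothelial markers (Dpt, Thy1, Msln, Upk3b and Wt1) were 707 and 450 CPM, against 105 and 73.6 CPM in HSCs.

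In HSCs, 9 of the 10 genes passed the level filter. Ctgf alone was past 1.5-fold upward and Ajuba alone downward, and their median log2 ratio was 0.05. The interval lay above 0 for 5 of them (Ctgf, Amotl2, Yap1, Tead1 and Lats2) and below 0 for 3 (Cyr61, Ajuba and Nuak2), as it did for 27.7% and 46.1% of all genes tested, so an interval apart from 0 is common at this depth. Over the 10179 genes of HSCs, 3.03% were past 1.5-fold higher and 3.05% lower, 6.07% in either direction.

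**Figure D1:**
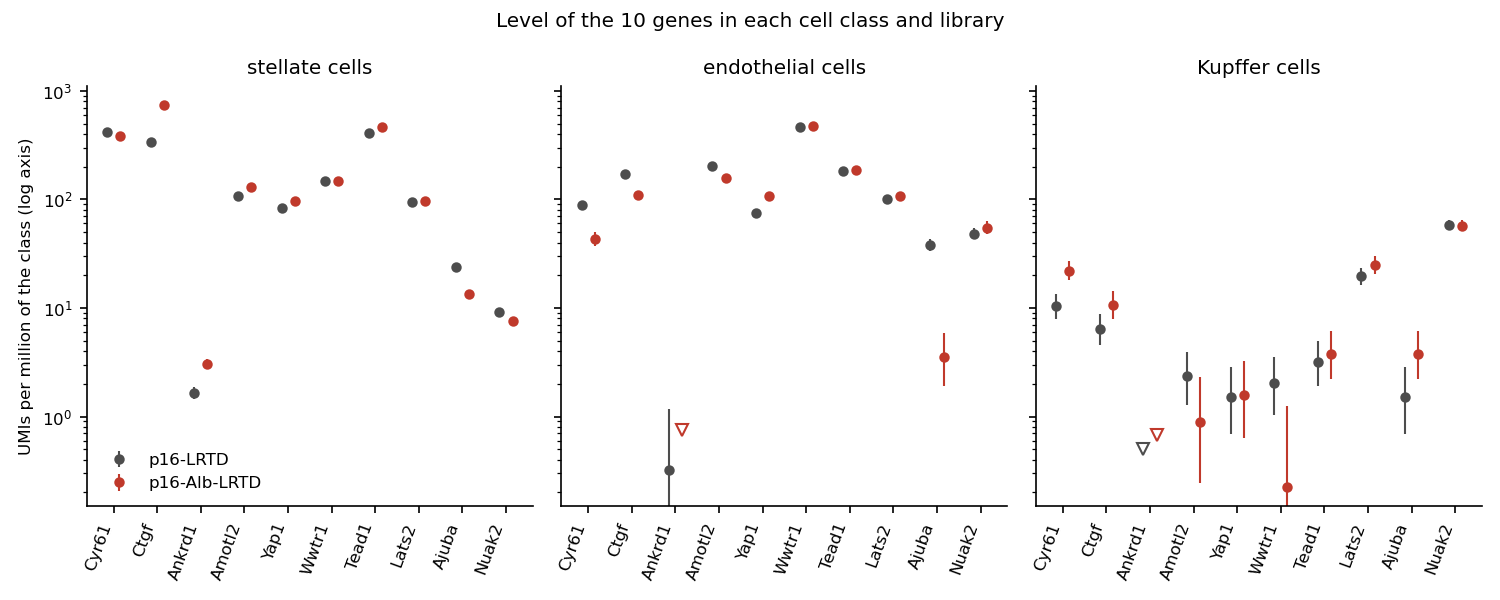
Level of each gene in HSCs (stellate), endothelial and Kupffer cells, as CPM of the class on a log axis, in p16-LRTD (grey) and p16-Alb-LRTD (red). Points carry exact Poisson intervals, and open triangles stand at 3 counts per library where a gene had 0 UMIs. Ctgf stands higher in p16-Alb-LRTD HSCs (335 and 734 CPM), Ajuba lower in p16-Alb-LRTD endothelial cells (37.9 and 3.51 CPM).

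The share of HSCs with a UMI was compared after every cell had been thinned to 5000 UMIs, which left out 16 and 7 shallower cells. Ctgf was found in 58.9% (57.8 to 60.0, Clopper-Pearson) of control HSCs and in 80.2% (79.2 to 81.1) of those of p16-Alb-LRTD. Without thinning the shares were 78.5% and 92.1%. Cells with 5 or more Ctgf UMIs made up 11.1% and 31.2%. Cells in which Ctgf was found had a mean of 2.93 and 4.57 UMIs of it. The most Ctgf-rich 10% of cells held 38.6% and 32.0% of its UMIs, and the median cell had 2.07 and 5.53 UMIs per 10000.

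Cyr61 was found in 65.7% (64.7 to 66.8) and 61.2% (60.0 to 62.4) of thinned HSCs, and 15.3% and 13.7% had 5 or more UMIs. Ajuba was found in 12.05% (11.3 to 12.8) and 6.35% (5.77 to 6.96). The shares were 40.6% and 46.7% for Amotl2, 33.9% and 36.8% for Yap1, 83.2% and 85.8% for Tead1 and 4.72% and 3.49% for Nuak2. Those of Wwtr1 (47.7% and 48.1%), Lats2 (38.3% and 37.8%) and Ankrd1 (0.434% and 0.711%) had intervals that overlapped. In cells thinned to 3000 UMIs the intervals of Nuak2 (2.64% and 2.51%) overlapped too. Such shares were not computed for all genes.

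In Kupffer cells, taken as a class that should lack these genes, Ctgf was found in 3.60% and 6.21%, Cyr61 in 6.12% and 8.47%, and Ajuba in 0.719% and 2.26% of cells at the same thinned depth. Their unthinned median depth was 19514 and 25102 UMIs, against 17025 and 18136 in HSCs. For these 3 genes the shares in HSCs were all above those. Kupffer cells may not be a clean background for Cyr61 and Ajuba, since both in p16-Alb-LRTD stood there above the level of free HSC marker RNA, as given for that class.

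Ctgf and Cyr61 were each found in most HSCs, so many cells would hold both without any link between them, and a link was not tested. Both were present in 43.2% of HSCs thinned to 5000 UMIs in the control and 50.8% in p16-Alb-LRTD. Cells with Ctgf and no Cyr61 made up 15.7% and 29.4%, whereas cells with Cyr61 and no Ctgf made up 22.6% and 10.4%. Neither was seen in 18.5% and 9.45%. In p16-LRTD cells with only 1 of the 2 genes, Cyr61 was thus the more frequent, and in p16-Alb-LRTD cells Ctgf was. This order follows from the share of each gene alone.

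**Figure D2:**
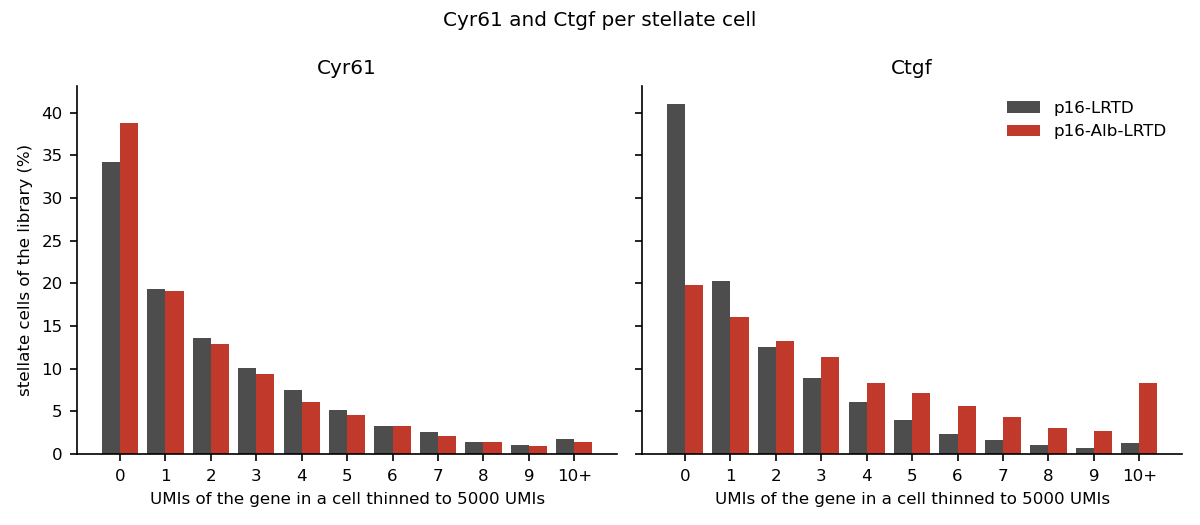
Share of HSCs (stellate cells), in percent of each library, by the number of Cyr61 (left) and Ctgf (right) UMIs in a cell thinned to 5000 UMIs, with 10 or more in the last bar. The bar at 0 is 34.3% in the control and 38.8% in p16-Alb-LRTD for Cyr61, and 41.1% and 19.8% for Ctgf.

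Immediate early genes, which are induced within minutes by growth factors and by tissue dissociation, were higher in p16-Alb-LRTD HSCs. All 16 genes of the list had log2 ratios above 0, with a median of 0.56, against 39.3% of all genes in HSCs, and 7 were past 1.5-fold higher, against 3.03%, or 9 with TMM or median-of-ratios scaling. Among them were Fos (1347 and 2261 CPM, 0.75), Junb (0.75), Klf2 (0.82), Klf4 (1.11), Btg2 (0.73) and Nr4a1 (1.42). Since Cyr61 and Ctgf are themselves induced in this way, HSCs were divided into 3 strata of equal size by the summed immediate early gene UMIs of the cell. The low stratum held 45.2% of the control's HSCs and 19.3% of the others, and the high stratum 15.7% and 54.3%.

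Cyr61 was higher in the strata with more immediate early gene RNA, and lower in p16-Alb-LRTD within each stratum. In p16-LRTD it was counted at 303, 481 and 580 CPM from the low to the high stratum. In p16-Alb-LRTD it was counted at 157, 319 and 484 CPM. The log2 ratios between the libraries were -0.95 (-1.0 to -0.89), -0.59 (-0.62 to -0.56) and -0.26 (-0.29 to -0.23). With the strata given equal shares in both libraries, the ratio of Cyr61 was -0.50 instead of -0.14. Within the high stratum the immediate early gene sum still differed, with medians of 150 and 171 UMIs per 10000. What part dissociation had in these levels was not tested.

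Ctgf differed less between the strata than Cyr61. It was counted at 299, 357 and 373 CPM in the control and at 762, 732 and 727 CPM in p16-Alb-LRTD. From low to high its log2 change was 0.32 (0.28 to 0.36) in the control and -0.07 (-0.09 to -0.04) in p16-Alb-LRTD. Its log2 ratios between the libraries were 1.35, 1.03 and 0.96, and 1.11 with equal shares, against 1.13 without. Ajuba was lower in p16-Alb-LRTD in every stratum, with log2 ratios of -0.59, -0.63 and -0.97. Yap1 (0.31, 0.24 and 0.17), Tead1 (0.23, 0.23 and 0.21) and Amotl2 (0.29, 0.25 and 0.27) were slightly higher in each, and Wwtr1 lay between -0.17 and 0.01. Nuak2 was lower in the high stratum (-0.53, -0.78 to -0.29), and its intervals included 0 in the low (-0.01) and middle (-0.05) ones.

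Collagen RNA was lower in p16-Alb-LRTD HSCs, with a median log2 ratio of -1.60 for Col1a1, Col1a2 and Col3a1. HSCs were therefore also divided into 3 strata by the sum of these genes, of which the high one held 44.7% of control cells and 19.9% of p16-Alb-LRTD cells. Ctgf was higher in p16-Alb-LRTD in each stratum, at 768, 713 and 713 CPM against 314, 320 and 353 CPM in the control. The p16-Alb-LRTD library thus had about as much Ctgf in its collagen-poor as in its collagen-rich HSCs. Cyr61 had log2 ratios of -0.08, -0.05 and -0.12.

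Ajuba followed the collagen level in the opposite direction. In p16-LRTD it was counted at 43.4, 32.4 and 10.4 CPM from the low to the high stratum, and in p16-Alb-LRTD at 17.6, 12.1 and 7.94 CPM. From low to high its log2 change was -2.06 (-2.19 to -1.93) in the control and -1.15 (-1.38 to -0.92) in p16-Alb-LRTD. The ratio between the libraries was -1.30 in the low, -1.42 in the middle and -0.39 in the high stratum, and -1.20 with equal shares. Wwtr1 was higher where collagen was higher, with a log2 change from low to high of 0.49 (0.44 to 0.55) and 0.35 (0.29 to 0.40), and Lats2 was lower there, with -0.37 and -0.39. Nuak2 had ratios between the libraries of -0.45, -0.58 and 0.09, the last with an interval that included 0. Within the high stratum the median collagen sum still differed, at 102 and 53.4 UMIs per 10000.

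**Figure D3:**
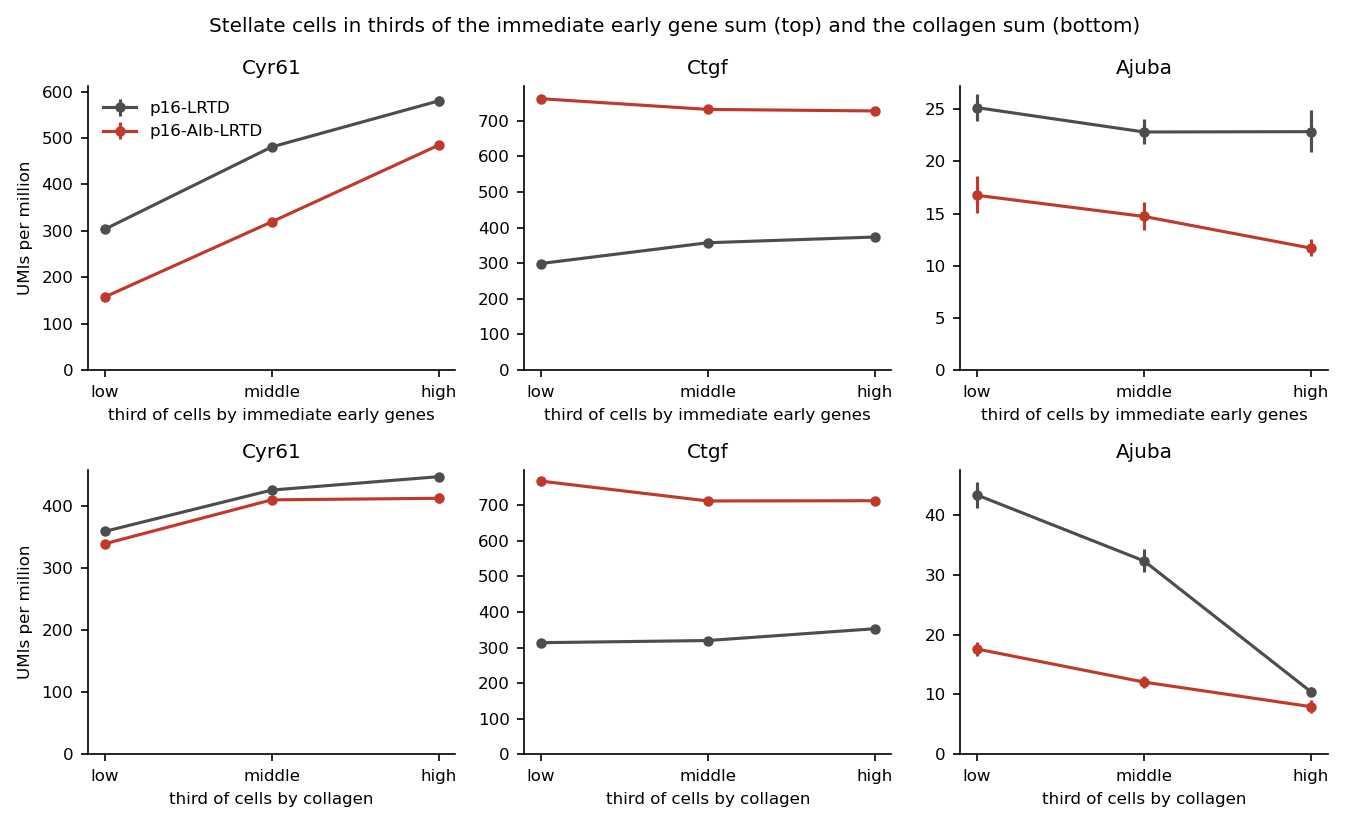
Cyr61, Ctgf and Ajuba in HSCs, as CPM (axes start at 0), in 3 strata of cells by the immediate early gene sum (top) and the collagen sum (bottom), with exact Poisson intervals, p16-LRTD in grey and p16-Alb-LRTD in red. Cyr61 climbs with the immediate early gene sum in both libraries, Ctgf lies between 713 and 768 CPM in p16-Alb-LRTD and between 299 and 373 CPM in p16-LRTD, and Ajuba is lowest where collagen is high.

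The wider pathway was described by lists chosen by function. In the core kinase cascade, 13 of 14 genes passed the level filter in HSCs and none was past 1.5-fold, against 6.07% of all genes. Their median log2 ratio was 0.01. The largest ratios were those of Map4k4 (0.16), Wwc2 (0.16), Stk3 (0.16, the MST2 kinase), Taok3 (-0.15), Lats1 (-0.07) and Lats2. Among coactivators and DNA-binding partners, 7 of 9 passed, none was past 1.5-fold and all had ratios above 0 (median 0.12), against 39.3% of all genes. Of these, Wwtr1 (0.008, -0.02 to 0.04), Tead3 (0.005, -0.08 to 0.09) and Tead4 (0.003, -0.11 to 0.11) had intervals that included 0. Tead2 had 0.12 (0.02 to 0.22), and Vgll4, a TEAD-binding repressor, had 0.17. Among adaptors and upstream regulators, 13 of 14 passed and Ajuba alone was past 1.5-fold. The other ratios there included Amotl1 (0.26), Frmd6 (0.16), Tjp1 (0.13), Ptpn14 (-0.14) and Tnks1bp1 (-0.18), and the median was 0.08.

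Targets of YAP and TAZ did not go one way in HSCs. Of 22 genes in the list 17 passed the level filter, 4 with ratios above 0 and 13 below, where 60.7% of all genes lay below 0, and the median was -0.20 against -0.05 for all genes. Ctgf and Nt5e (CD73, an ectonucleotidase that makes adenosine; 62.9 and 103 CPM, log2 ratio 0.71) were past 1.5-fold higher, as were 3.03% of all genes. Tgfb2, a TGF-beta ligand, was past 1.5-fold lower (59.1 and 38.6 CPM, -0.62), as were 3.05% of all genes, but not with TMM or median-of-ratios scaling (-0.57 in both), and Myof (-0.57) and Ccdc80 (-0.29) were below 0. Targets of serum response factor, another transcription factor that answers to actin tension, had lower values. All 9 with enough counts had ratios below 0, with a median of -0.45, against the 60.7% of all genes, and 2 were past 1.5-fold lower (3.05% of all genes), Acta2 (46.3 and 13.0 CPM, -1.83) and Tpm1 (519 and 277 CPM, -0.91). Actg1 (-0.58), Tagln (-0.51), Myl9 (-0.45) and Vcl (-0.43) were nearest to them. Smooth muscle markers (Myh11, Cnn1, Tagln and Acta2), of which Acta2, Tagln and Cnn1 are on both lists, summed to 817 and 522 CPM in HSCs, and Myh11, which is on the marker list alone, had 150 and 73.8 CPM (-1.03). The part of smooth muscle cells in these values was not tested.

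**Figure D4:**
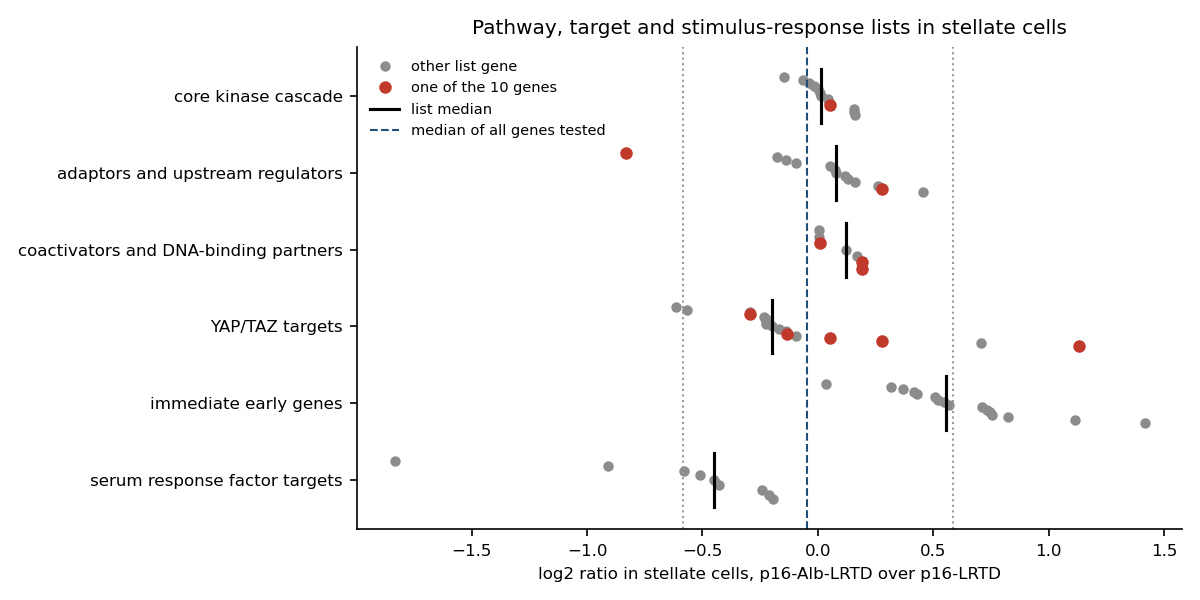
Log2 ratio (p16-Alb-LRTD over p16-LRTD) in HSCs of each gene with at least 5 CPM in 6 lists, with the 10 genes in red, list medians as black bars, 1.5-fold as dotted lines and the median of all 10179 genes as a dashed line. The list medians run from -0.45 for serum response factor targets to 0.56 for immediate early genes, and the kinase cascade lies near 0.

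Endothelial cells had a different set of levels. Relative to HSCs of the same library, Wwtr1 was 3.14-fold higher in the control and 3.19-fold in p16-Alb-LRTD, Nuak2 5.22-fold and 7.29-fold, and Amotl2 1.90-fold and 1.22-fold. Tead1 was 2.27-fold and 2.50-fold lower, and Cyr61 4.74-fold and 8.82-fold lower. Yap1 and Lats2 lay between 89.7% and 111% of the HSC level. Yap1 made up 14.0% (12.8 to 15.2) and 18.4% (16.8 to 20.03) of the Yap1 and Wwtr1 UMIs in endothelial cells, and 36.3% (35.8 to 36.8) and 39.3% (38.7 to 39.8) in HSCs.

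The readout genes were lower in p16-Alb-LRTD endothelial cells. Cyr61 was counted at 88.7 CPM (81.4 to 96.5) and 43.4 CPM (37.2 to 50.4), a log2 ratio of -1.03 (-1.29 to -0.78). Ctgf was counted at 171 CPM (161 to 182) and 109 CPM (99.4 to 120), a log2 ratio of -0.65 (-0.81 to -0.48). Amotl2 was counted at 204 and 159 CPM, with a ratio of -0.36 (-0.50 to -0.22). At 5000 UMIs a cell, Cyr61 was found in 24.9% (20.8 to 29.3) and 14.1% (10.3 to 18.7), and Ctgf in 37.8% (33.1 to 42.6) and 21.6% (16.9 to 26.8) of endothelial cells. These shares were above those in Kupffer cells, although the endothelial cells were shallower before thinning, with medians of 11781 and 11992 UMIs.

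The Ctgf ratio in endothelial cells turned to 0.52 when cells that also passed the HSC or Kupffer limit were kept, and the Cyr61 ratio moved to -0.34. With equal shares of the immediate early gene strata the Cyr61 ratio was -1.85. Most of the cells set aside, 180 and 197, passed both the HSC and the endothelial limit. Their part in the result was not tested.

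Ajuba in endothelial cells had the log2 ratio farthest from 0 of all 10 genes and 3 classes, among those with more than 3 UMIs in both libraries. Endothelial cells of p16-LRTD held 233 of its UMIs, in 112 of 430 cells (26.0%, 22.0 to 30.5), with up to 15 in a cell. Those of p16-Alb-LRTD held 14, in 13 of 283 cells (4.59%, 2.47 to 7.73), with at most 2 in a cell. This is 37.9 CPM (33.2 to 43.0) and 3.51 CPM (1.92 to 5.90), a log2 ratio of -3.43 (-4.32 to -2.65). At a matched depth of 5000 UMIs the shares were 13.6% and 1.77%. The p16-Alb-LRTD value was not above that of Kupffer cells in the same library, which had Ajuba at 3.80 CPM and in 2.26% of thinned cells. It was 26.3% (14.3 to 44.2) of the HSC level in that library, whereas the HSC markers lay at 1.0% to 2.18% in the same endothelial cells. Resting on 14 UMIs, the size of the ratio is uncertain. Of the p16-LRTD endothelial cells, 4 were rich in collagen RNA, and without them Ajuba still had 231 UMIs in 110 cells, a ratio of -3.45. With cells of more than 1 class kept the ratio was -1.86. The related adaptors Limd1 (82.1 and 89.4 CPM, 0.12) and Wtip (39.0 and 42.9 CPM, 0.14) were close between the libraries.

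Within p16-LRTD endothelial cells, Ajuba was higher where immediate early gene RNA was higher, at 17.4, 36.0 and 109 CPM in the low, middle and high stratum. In p16-Alb-LRTD it was counted at 1.87, 4.27 and 3.59 CPM, on 1, 4 and 9 UMIs, although 62.2% of these cells were in the high stratum, against 14.4% in p16-LRTD. Cyr61 was higher with more immediate early gene RNA in both libraries, with 45.9, 91.4 and 218 CPM in the control and 5.60, 40.5 and 52.6 CPM in p16-Alb-LRTD. Its log2 change from low to high was 2.25 (1.91 to 2.59) and 3.23 (1.65 to 5.53). Ctgf had 154, 165 and 248 CPM in the control and 116, 181 and 81.3 CPM in p16-Alb-LRTD, so its difference was largest in the high stratum (-1.61, -1.89 to -1.32) and spanned 0 in the middle one (0.14, -0.13 to 0.40).

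The other members differed less in endothelial cells. Yap1 was counted at 75.2 CPM (68.5 to 82.4) and 106 CPM (96.6 to 117), a log2 ratio of 0.50 (0.31 to 0.69). Wwtr1 (462 and 472 CPM, 0.03), Tead1 (181 and 188 CPM, 0.05), Lats2 (101 and 106 CPM, 0.08) and Nuak2 (48.3 and 55.0 CPM, 0.19) had intervals that included 0. Ankrd1 had 2 UMIs in the control and 0 in p16-Alb-LRTD, where the exact interval reaches 0.926 CPM.

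Of the 9 genes with enough counts in endothelial cells, 3 (Ajuba, Cyr61 and Ctgf) were past 1.5-fold lower and none higher. Ctgf was no longer past this limit with TMM (-0.57) or median-of-ratios scaling (-0.55) or with equal immediate early gene strata (-0.58), and Yap1 was past it upward with median-of-ratios scaling (0.60). Of 9858 genes in this class, 13.5% were past 1.5-fold lower and 6.44% higher, 20% in either direction, and the median log2 ratio was -0.10. Of the target list, 15 of 22 genes passed the level filter, 4 had ratios above 0 and 11 below (39.7% and 60.3% of all genes), 6 were past 1.5-fold lower and none higher, with a median of -0.50. Of the immediate early genes, 12 of 16 were past 1.5-fold higher, with a median of 0.88, and of the serum response factor targets 5 of 8 were past 1.5-fold lower, with a median of -0.63. With TMM or median-of-ratios scaling 4 of the YAP and TAZ targets and 3 of the serum response factor targets were past 1.5-fold lower. Smooth muscle markers summed to 43.4 and 6.03 CPM, the collagen genes to 634 and 41.7 CPM, the HSC markers to 446 and 351 CPM and proliferation genes to 54.9 and 12.1 CPM in this class. Without the 4 collagen-rich control cells, Col1a1 in p16-LRTD fell from 215 to 16.2 CPM, against 5.02 CPM in p16-Alb-LRTD. The Kupffer marker Marco had 144 and 12 UMIs there, and the B cell genes Cd79a and Ms4a1 had 36 and 13 UMIs in the control and 0 in p16-Alb-LRTD. The endothelial marker Egfl7 was at 1524 and 797 CPM, a log2 ratio of -0.93. Their part in the result was not tested.

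**Figure D5:**
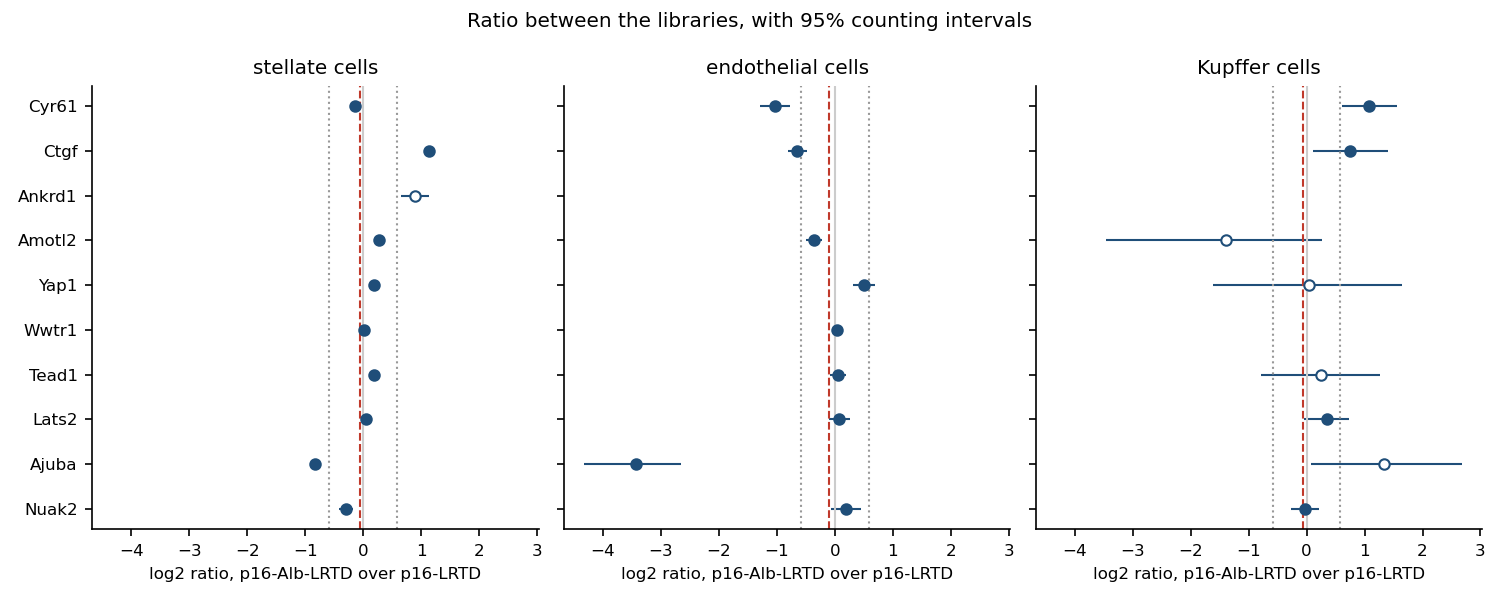
Log2 ratio of p16-Alb-LRTD over p16-LRTD for each gene with more than 3 UMIs in both libraries, in HSCs (stellate), endothelial and Kupffer cells, with exact counting intervals. Open points are below a mean of 5 CPM, dotted lines mark 1.5-fold and the dashed line the median of all genes tested. Ctgf lies at 1.13 in HSCs and -0.65 in endothelial cells, and Ajuba at -0.83 and -3.43.

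Kupffer cells, the resident macrophages of the liver, had little of the pathway's coactivators. Yap1 was counted at 1.51 and 1.56 CPM, Tead1 at 3.20 and 3.80 CPM, Amotl2 at 2.35 and 0.894 CPM and Wwtr1 at 2.02 and 0.224 CPM, the last from 12 UMIs and 1. All 4 lay at 0.151% to 2.19% of their HSC level, at or below the range of the 6 HSC markers in the same cells (0.791% to 3.67%), and are read as background. Ankrd1 had 0 UMIs in both libraries, with exact intervals that reach 0.620 and 0.825 CPM. Ajuba had 9 and 17 UMIs, 1.51 and 3.80 CPM, which is 6.36% (2.90 to 12.1) and 28.4% (16.5 to 45.6) of its HSC level. The highest HSC marker lay at 3.67% and 2.09%, so that only the p16-Alb-LRTD interval was above it.

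Nuak2 and Lats2 were above that background in Kupffer cells. Nuak2 was counted at 58.5 CPM (52.5 to 65.0) and 57.5 CPM (50.6 to 64.9), a log2 ratio of -0.03 (-0.27 to 0.21), and stood 6.34-fold and 7.61-fold above its HSC level. Lats2 was counted at 19.5 and 24.8 CPM, a ratio of 0.35 (-0.04 to 0.73), at 20.7% and 25.4% of its HSC level.

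Cyr61 was counted at 10.4 CPM (8.0 to 13.4) and 22.1 CPM (18.0 to 26.9) in Kupffer cells, a log2 ratio of 1.09 (0.61 to 1.57). This is 2.48% of the HSC level in p16-LRTD, within the range of the HSC markers there, and 5.78% in p16-Alb-LRTD, above their highest value of 2.09%. Ctgf was counted at 6.39 and 10.7 CPM, a ratio of 0.75 (0.10 to 1.40), at 1.91% and 1.46% of the HSC level, within the marker range in both libraries. The Cyr61 and Ctgf ratios turned to -0.35 and -0.33 when cells of more than 1 class were kept. In the same cells the endothelial markers summed to 92.3 and 166 CPM, and the Kupffer marker Marco had 508 and 1461 CPM. All 16 immediate early genes had ratios above 0 there (median 0.37), as had 4033 of the 9514 genes of this class. The part of these genes and markers in the result was not tested. Of the 4 genes with enough counts, these 2 were past 1.5-fold higher and none lower, and of 9514 genes in this class 5.21% were past 1.5-fold higher and 6.83% lower, 12% in either direction. With stricter class limits Ctgf (0.34) was no longer past 1.5-fold, and with cells of 10000 to 30000 UMIs Cyr61 (0.57) was not.

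The genes whose levels over the 3 classes and 2 libraries were most like those of 4 members were found by the root mean square distance of centred log2(CPM + 1) profiles over 6 values, among 8923 genes. Nearest to Yap1 were Adgra2 (0.15), Lrrc32 (0.15), Slc43a3 (0.17), Calcrl (0.17) and Zfp618 (0.20). Nearest to Wwtr1 were Ramp2 (0.34), Msrb3 (0.40), Tmtc2 (0.43), Ica1 (0.45) and Bace2 (0.46). Nearest to Cyr61 were Itga2b (0.29), Rab30 (0.30), Atp9a (0.32), Gm11266 (0.39) and Tspan6 (0.40). Nearest to Ctgf were Gm13889 (0.35), Nectin3 (0.38), Tmem47 (0.39), Aff3 (0.41) and Fign (0.44). Cyr61 was not among the genes nearest to Ctgf, nor Ctgf among those nearest to Cyr61.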

How the data were processed

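Single-cell RNA was measured in 2 libraries made with a 3' UMI chemistry. For each barcode the authors deposited the unnormalised UMI counts of every gene, which Cell Ranger 7.0.1 had made on mm10. Whether intronic reads were counted is not given in the sources used here. Everything else was computed from these counts with Python 3.11.15, NumPy 2.4.6 and SciPy 1.17.1.

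As in the study's methods, a cell was kept if at most 5% of its UMIs were mitochondrial, if 2000 to 7000 genes were detected, and if its total did not exceed 50000 UMIs. No doublet caller was run, and cells passing more than 1 class limit were set aside. Counts were summed per class and library, since cells are not replicates. Free RNA was read from HSC markers in other classes.

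The genes, lists and class limits were chosen with earlier results of these data known. The level of all 10 genes is given in each class, while strata, shares outside HSCs and cells outside the classes are described for some of them. Of the other lists, up to 6 genes with the largest HSC ratios among those with at least 20 CPM are named, and the 5 genes nearest to Cyr61, Ctgf, Yap1 and Wwtr1. Alternatives covered scaling (TMM in edgeR 4.0.16, R 4.3.3), filters, class limits, depth and strata.

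Gene overlaps come from GENCODE vM21, in which 30934 of 31054 features were matched by identifier.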

Additional observations from a re-analysis of the deposited data

Results flagged for a closer look

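Some genes had ratios of opposite sign in different cell classes, with counting intervals on opposite sides of 0. Cyr61 had log2 ratios of -0.14 in HSCs and -1.03 in endothelial cells against 1.09 in Kupffer cells. Ctgf had 1.13 in HSCs and 0.75 in Kupffer cells against -0.65 in endothelial cells, but its Kupffer level lay within the range of free HSC marker RNA. Amotl2 had 0.28 in HSCs and -0.36 in endothelial cells. Ajuba had -0.83 in HSCs and -3.43 in endothelial cells against 1.33 in Kupffer cells, the last from 9 and 17 UMIs. With cells of more than 1 class kept, most of these contrasts were lost or turned. Cyr61 was then at -0.15, -0.34 and -0.35 and Ajuba at -0.84, -1.86 and -0.08 in HSCs, endothelial and Kupffer cells, and Ctgf at 1.11, 0.52 and -0.33. Amotl2 was at 0.27 in HSCs and -0.25 in endothelial cells. With 1 library per genotype the difference between classes was not tested.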

How the results depend on the processing

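Over all alternatives run, 88 summary values and 296 ratios of single genes stayed within the counting interval of the reported value, or within 1.5 times it for counts, while 19 and 55 did not. Values near 0 could change sign within the interval, as Lats2 (-0.10) and Nuak2 (-0.02) did in endothelial cells. The number of genes past 1.5-fold was 2 in HSCs, 3 in endothelial and 2 in Kupffer cells. In endothelial cells it was 2 with TMM scaling or equal immediate early gene strata, and 3 with median-of-ratios scaling, where Yap1 was past the limit and Ctgf was not. It became 1 in HSCs and 1 in Kupffer cells with a fold of 2, 1 in endothelial and 4 in Kupffer cells with cells of more than 1 class kept, 1 in Kupffer cells with stricter class limits or only cells of 10000 to 30000 UMIs, and 5 there with a mean of at least 1 CPM or no filter, settings that gave 3 in HSCs, while no filter gave 4 in endothelial cells. The median ratio of 0.05 in HSCs became 0.10 with TMM or median-of-ratios scaling and 0.12 with equal collagen strata. The median of 0.03 in endothelial cells became 0.13 with median-of-ratios scaling, -0.10 with equal immediate early gene strata and -0.02 with no upper limits or with cells of more than 1 class kept, and that of 0.55 in Kupffer cells became -0.35 with cells of more than 1 class kept. With those cells kept, Ctgf turned to 0.52 in endothelial cells, and Cyr61, Ctgf and Ajuba to -0.35, -0.33 and -0.08 in Kupffer cells. Lats2 turned to -0.05 in HSCs with equal collagen strata. List medians in HSCs under TMM and median-of-ratios scaling were -0.16 and -0.15 for YAP and TAZ targets (-0.20 before), 0.60 under both for immediate early genes (0.56) and -0.41 under both for serum response factor targets (-0.45). Those scalings move every HSC ratio by 0.04 to 0.05, and the cause of the other changes was not tested. Equal collagen strata could not be formed in endothelial cells, where the limit of the lowest stratum fell at 0 UMIs. Ctgf in HSCs ranged from 1.10 to 1.18 over 13 alternatives, Ajuba from -1.20 to -0.71, and Ajuba in endothelial cells from -4.07 to -1.86. No paired analysis was possible because a genotype had only 1 library. The 430 and 283 endothelial and the 283 and 178 Kupffer cells limit what can be seen in those classes, and the spread between mice is unknown.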

Other observations

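The cells that passed more than 1 class limit, 245 in the control and 221 in p16-Alb-LRTD, had median depths of 24438 and 29404 UMIs, above those of HSCs. Ctgf was counted there at 284 and 452 CPM (log2 ratio 0.67, 0.59 to 0.76), Cyr61 at 316 and 228 CPM (-0.47, -0.57 to -0.38) and Ajuba at 35.2 and 15.9 CPM (-1.15, -1.50 to -0.80). Yap1 was counted at 80.5 and 106 CPM (0.39, 0.22 to 0.56), and Wwtr1 at 239 and 281 CPM (0.23, 0.13 to 0.33).

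The cells that passed no class limit, 194 and 113, had Ctgf at 78.3 and 108 CPM (0.47, 0.24 to 0.70) and Cyr61 at 188 and 260 CPM (0.47, 0.32 to 0.61). Nuak2 was at 11.2 and 23.6 CPM (1.08, 0.52 to 1.64), Amotl2 at 61.5 and 40.5 CPM (-0.60, -0.94 to -0.28) and Tead1 at 149 and 122 CPM (-0.29, -0.49 to -0.10). Yap1, with 41.0 and 31.5 CPM (-0.38, -0.77 to 0.00), had an interval that included 0, as had Wwtr1, Lats2 and Ajuba. These cells were given no class.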
